A study of Mus musculus with 12 samples.

Results

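The glucocorticoid response genes described here were 8 of the 32285 genes counted in the livers of 12 neonatal mouse pups. They were Nr3c1, which encodes the glucocorticoid receptor, and 7 genes known as targets of that receptor: Fkbp5, Tsc22d3, Per1, Sgk1, Zbtb16, Klf9 and Dusp1. Members were matched by gene symbol and followed through every cell class of the liver, in bled and unbled pups.

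C57BL/6 pups of each litter were divided at random into 6 controls and 6 pups with phlebotomy-induced anemia. The anemia group lost 20 µL of blood per gram of body weight through the facial vein on postnatal day 2 (P2) and every 2 days after that until P10, and the hematocrit came down to 20–24% from a starting range of 45–60%. The control group received a daily needle stick that drew no blood, so both groups were handled and pricked, and pups without any handling were not analysed here. Livers were taken 24 h after the last bleed, at P11, dissociated with enzymes, and each liver gave 1 single-cell library, so the pup was the replicate. No hormone level was analysed here, and the hour of the day at which livers were taken is not given in the sources used here.

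Glucocorticoids are adrenal steroids released in response to stress and on a daily rhythm. They enter cells freely and bind the receptor in the cytoplasm, where it is held by heat shock proteins and co-chaperones, and the bound receptor moves to the nucleus and binds DNA at a palindromic glucocorticoid response element. In liver the hormone drives gluconeogenic and acute phase genes in hepatocytes, and it restrains inflammatory genes in macrophages and endothelium. Several of its targets close feedback loops: the product of Fkbp5 lowers the affinity of the receptor for hormone, and those of Tsc22d3 and Dusp1 damp inflammatory signalling.

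After removal of barcodes with too few or too many unique molecular identifiers (UMIs, the count of captured RNA molecules) or too much mitochondrial RNA, 206146 of 207537 barcodes were kept, 98075 from control and 108071 from anemic livers. The libraries held between 46252146 and 74545930 UMIs, and 5031 of the 202419 distinct barcodes were found in more than a single library. Cells fell into 16 classes named from marker genes, plus 10725 cells left unnamed, and UMIs were summed per pup and class before any test. Since markers alone gave these names, each ends in "-like". The NK-or-T-like class was a single cluster led by Cd28, Zbtb16 and Camk4 that held markers of both lineages, so its Zbtb16 level is part of what defined it, and the stellate-like class joined a cluster led by Ank3 and Colec11 with a fibroblast-type cluster led by Mfap4 and Col1a1. Marker expression of Y-linked genes and Xist gave 2 male pups among the controls (1 and 2) and 4 among the anemic pups (1, 3, 5 and 6). Anemia 2 and anemia 3 stood apart by their 4662 and 2145 monocyte-like cells. They also gave the fewest stellate-like (177 and 141), endothelial-like (901 and 1016) and hepatocyte-like cells (707 and 776), against 465 to 657, 1886 to 2475 and 1911 to 2783 in the other 4 anemic pups.

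Of the 128 pairs of member and class, 123 had enough UMIs to be tested, and 14 were called different between anemic and control liver (9 higher and 5 lower). Among all genes tested, the share called was 55.2% in the hepatocyte-like class, 18.5% in the endothelial-like class, 15.1% in the stellate-like class, 2.76% in the macrophage-like class and 1.04% in the plasmacytoid dendritic-like class. By direction, higher and lower calls made up 27.9% and 27.3% in hepatocyte-like, 7.67% and 10.8% in endothelial-like, 7.88% and 7.2% in stellate-like, 1.43% and 1.33% in macrophage-like and 0.376% and 0.668% in plasmacytoid dendritic-like cells. These 5 classes held every member call, and 12 of the 14 lay in the first 3 of them. In the other 11 classes no member was called. The share of all genes called there was 2.32% in B-like, 1.52% in pre-B-like, 0.811% in conventional dendritic-like, 0.768% in NK-or-T-like, 0.76% in monocyte-like, 0.494% in NK-like, 0.458% in T-like, 0.373% in erythroid-like, 0.277% in neutrophil-like, 0.0309% in cholangiocyte-like and 0% in basophil-like cells. The untested pairs were Klf9 in T-like, basophil-like and plasmacytoid dendritic-like cells, Tsc22d3 in basophil-like cells and Zbtb16 in pre-B-like cells. The members did not move as a block. With anemia, Zbtb16 and Fkbp5 (3 classes each) and Klf9, Per1 and Nr3c1 (1 class each) rose where they were called. Sgk1 (4 classes) and Dusp1 (1 class) fell, and Tsc22d3 was called in no class.

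**Figure D1:**
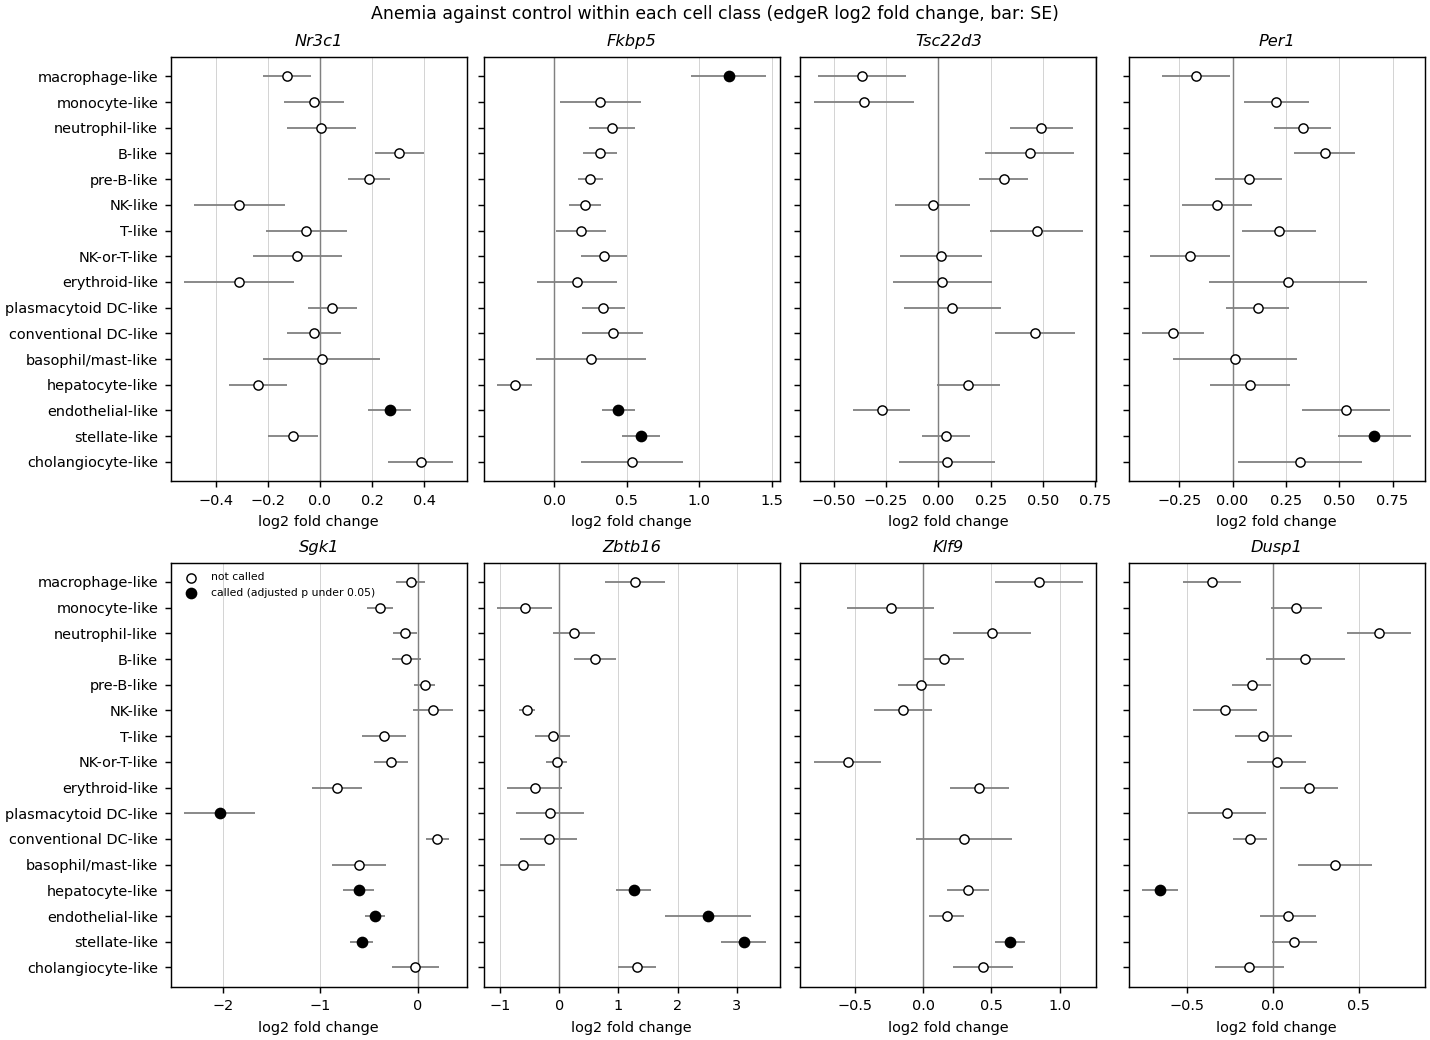
Log2 fold change of anemic against control liver for each gene (panel) in each of the 16 cell classes (rows), with the standard error as a bar and a scale of its own in each panel. Filled points passed an adjusted p of 0.05 (14 of 123), and the highest value is Zbtb16 in the stellate-like class at 3.12.

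The receptor gene Nr3c1 was measured in every class. Its mean level over the 12 pups, in UMIs per 1000000 UMIs of the class (CPM), was highest in the NK-or-T-like class at 962 ± 219 (SD, n = 12), followed by NK-like cells at 575 ± 139 and T-like cells at 283 ± 64.0. Both of the first steps in that order held in 12 of 12 pups. From T-like cells downwards neighbouring classes mostly did not differ beyond the spread between pups, and 5 of the 15 neighbouring steps did in all. Erythroid-like cells were last at 22.9 ± 10.8 CPM, a 42.0-fold range across the liver on totals that include globin RNA. They still ranked 16 with globin, mitochondrial and ribosomal protein genes out of the total. Their cluster led by Car1 and Slc25a21 had 88.1 CPM over control cells and 64.7 over anemic cells. The largest, led by Hba-a2 and Hbb-bs, had 11.4 and 5.89 CPM. Hepatocyte-like RNA carried over into other cells could account for 15.1% of the class level.

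With anemia, Nr3c1 was called in 1 of the 16 classes. In the endothelial-like class the control pups had 135 (lowest), 172 (median) and 186 (highest) CPM and the anemic pups 167, 190 and 212 CPM. The 2 ranges overlapped, with 4 anemic pups above every control. The log2 fold change was 0.27 (SE 0.08, adjusted p = 0.0345), and the call was lost with sex in the model (adjusted p = 0.0719), without the filter on low counts (adjusted p = 0.0636), without the allowance for the shift of all genes (0.18, adjusted p = 0.128) and when control 1, 4 or 6 or anemia 1, 4 or 5 was left out (adjusted p from 0.0543 to 0.0707). In the B-like class the anemic pups had 155 to 195 CPM against 107 to 165 in controls, a log2 fold change of 0.30 that did not pass (adjusted p = 0.0871). It was called higher there without anemia 6 (0.35, adjusted p = 0.0345) and in a joint voom model (0.28, adjusted p = 0.0335). The same joint model called Nr3c1 lower in NK-like cells (-0.25, adjusted p = 0.037). In hepatocyte-like cells the levels were 92.3, 121 and 134 CPM in controls and 62.5, 80.9 and 95.2 CPM in anemic pups, with 5 of 6 anemic pups below all controls (log2 fold change -0.24, SE 0.11, adjusted p = 0.0806). There it was called lower with doublets left out (-0.39, adjusted p = 0.0105), with a higher count minimum (-0.385, adjusted p = 0.00484), without the allowance for the shift of all genes (-0.62, adjusted p = 0.000148), without control 3 (-0.30, adjusted p = 0.0302) and without anemia 4 (-0.34, adjusted p = 0.0171). The higher count minimum made that allowance from fewer genes, so its scale is not that of the main fit. Over all 16 classes its log2 fold changes lay between -0.31 and 0.39, 7 positive and 9 negative.

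Fkbp5 encodes the co-chaperone FKBP51, which binds the receptor complex and lowers its affinity for hormone, and its mRNA is widely used as a readout of receptor activity. It lies at chr17:28399094-28517527 on the minus strand (GRCm38). Mean levels were highest in endothelial-like cells at 100.1 ± 18.0 CPM (n = 12), above NK-like cells in 12 of 12 pups, and lowest in erythroid-like cells at 4.97 ± 2.07 CPM. In erythroid-like cells 30.0% of that level was what hepatocyte-like RNA carried over into other cells could account for, by a ceiling set from hepatocyte markers.

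Fkbp5 was the member whose difference pointed upwards most often, with 15 of 16 positive log2 fold changes and a median of 0.33. It was called in 3 classes. In macrophage-like cells the control pups had 19.4, 24.5 and 27.9 CPM (lowest, median and highest) and the anemic pups 24.2, 50.3 and 93.5 CPM. Every anemic pup but anemia 2 lay above all controls. This came to a log2 fold change of 1.20 (SE 0.26, adjusted p = 0.0273), a 2.30-fold rise in macrophage-like cells. That call was lost with sex in the model (0.93, adjusted p = 0.0691) and when control 1, 3, 4, 5 or 6 or anemia 3 was left out (adjusted p from 0.051 to 0.0725).

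In the endothelial-like class, control pups had 70.6, 88.4 and 104 CPM of Fkbp5 and anemic pups 91.0, 110 and 136 CPM, with 5 of 6 anemic pups above all controls. Endothelial-like Fkbp5 thus rose by 0.44 on the log2 scale (SE 0.11, adjusted p = 0.0157). In the stellate-like class the values were 30.5, 42.0 and 52.9 CPM in controls and 50.0, 61.8 and 76.4 CPM in anemic pups, a log2 fold change of 0.60 (SE 0.13, adjusted p = 0.00619). With called doublets left out the stellate-like value was 0.42 (adjusted p = 0.329), on 1193 control and 858 anemia cells of that class. The caller marked 67.2% of the Ank3 and Colec11 cluster and 64.7% of the Mfap4 and Col1a1 cluster as doublets, so most of the class is lost in that setting. Hepatocyte-like cells went the other way: controls lay between 44.8 and 56.6 CPM and anemic pups between 21.7 and 38.4 CPM, without overlap. On the scale used for testing, which allows for the shift of all genes in that class, the hepatocyte-like log2 fold change was -0.27 (adjusted p = 0.0604). It was -0.65 (adjusted p = 0.00015) without that allowance, where the median over all hepatocyte-like genes was -0.41 instead of -0.03. With an allowance made anew in each setting, it was also called lower with doublets left out (-0.59, adjusted p = 0.00136), by DESeq2 (-0.30, adjusted p = 0.0413) and without control 1 or anemia 1, 4 or 5 (-0.34 to -0.32, adjusted p from 0.0376 to 0.0488). With a higher count minimum it was -0.42 (adjusted p = 0.00464). That setting made the allowance from fewer genes, so its scale is not that of the main fit.

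Tsc22d3 encodes GILZ, a leucine zipper protein that restrains NF-κB and AP-1 and carries part of the anti-inflammatory action of glucocorticoids (chrX:140539528-140600659, minus strand). Its mean level was highest in B-like cells at 109.8 ± 48.2 CPM, followed by T-like cells at 100.5 ± 44.1 and macrophage-like cells at 93.6 ± 25.8 CPM, and 1 of the 15 neighbouring steps went beyond the spread between pups. No class passed the test among the 15 in which it was measured well enough, and 11 of the 15 differences were positive. Within single clusters it was called lower in the endothelial-like cluster led by Clec4g and Dnase1l3 (-0.29, adjusted p = 0.0439), with 88.6 to 112 CPM in controls and 68.9 to 94.3 CPM in anemic pups, and its values were negative in the other 4 endothelial-like clusters too, from -0.22 to -0.056 with no call. The values differed in sign between lineages. In macrophage-like cells control pups had 86.5, 107 and 130 CPM and anemic pups 31.8, 79.3 and 111 CPM (log2 fold change -0.36, SE 0.21, adjusted p = 0.336). In neutrophil-like cells controls had 28.1, 39.4 and 46.2 CPM and anemic pups 41.8, 56.2 and 73.2 CPM (log2 fold change 0.49, SE 0.15, adjusted p = 0.163). The neutrophil-like class changed its make-up: the cluster led by Csta3 and Asprv1, with 79.6 CPM of Tsc22d3 over control cells and 85.3 over anemic cells, went from 37.1% to 56.2% of it, and the one led by Ltf and Stfa3, with 28.7 and 29.8 CPM, from 36.3% to 19.9%. The one led by Retnlg and Stfa2 stayed at 17.4% and had 31.1 and 55.4 CPM, and the one led by Camp and Chil3 had 33.2 and 33.1 CPM. The part of the make-up in the neutrophil-like value was not tested. In B-like cells a single pup of the anemia group reached 258 CPM while the other 5 overlapped with controls.

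Per1 encodes a repressor of the circadian clock that glucocorticoids also induce (chr11:69095217-69109960, plus strand). Its level was much the same in NK-or-T-like cells (59.7 ± 14.8 CPM) and T-like cells (59.1 ± 12.4 CPM), with NK-or-T-like cells higher in 5 of the 12 pups, and lowest in erythroid-like cells at 4.47 ± 2.48 CPM. With globin, mitochondrial and ribosomal protein genes out of the total, erythroid-like cells ranked 13 of 16 and hepatocyte-like cells came last. In the stellate-like class control pups had 23.8, 25.5 and 34.7 CPM and anemic pups 26.3, 38.8 and 60.4 CPM. Of the 6 anemic pups, 4 lay above all controls. Stellate-like Per1 rose by 0.66 on the log2 scale (SE 0.17, adjusted p = 0.016). The call was lost with doublets left out (0.68, adjusted p = 0.137), with sex in the model (0.55, adjusted p = 0.0737) and with coarser clusters (0.50, adjusted p = 0.0978), where the collagen-rich cells (4047) were left unnamed and the class held only the 2931 cells led by Ank3 and Colec11. Within the 2 stellate-like clusters Per1 had 0.51 (adjusted p = 0.107) and 0.49 (adjusted p = 0.348). In the 15 other classes Per1 lay between -0.28 and 0.53 with no call, though it was called higher in endothelial-like cells without control 3 (0.67, adjusted p = 0.031) or without anemia 2 and 3 (0.69, adjusted p = 0.0291), in B-like cells without anemia 4 (0.53, adjusted p = 0.0386), and in both in a joint voom model.

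Klf9 encodes a zinc finger factor, Krüppel-like factor 9, induced by glucocorticoids and thyroid hormone (chr19:23141226-23168134, plus strand). Mean levels were highest in stellate-like cells, which had 224 ± 55.5 CPM, above endothelial-like cells at 121 ± 20.4 CPM in 12 of 12 pups, and these lay above cholangiocyte-like cells at 61.5 ± 25.6 CPM in 11 of 12 pups. The cholangiocyte-like class was a single cluster in which 81.2% of cells were called doublets, and it ranked 6 instead of 3 with doublets left out. All 5 lymphoid classes (NK-like, NK-or-T-like, T-like, B-like and pre-B-like) averaged under 20 CPM. In the stellate-like class the control pups had 155, 183 and 200 CPM and the anemic pups 186, 269 and 323 CPM, and 5 of 6 anemic pups were above all controls. On the log2 scale the rise was 0.63 (SE 0.11, adjusted p = 0.00153), and the call was kept with doublets left out. In macrophage-like cells 5 anemic pups lay above all controls and anemia 2, at 8.10 CPM, lay below them, for a log2 fold change of 0.85 (adjusted p = 0.15). Without anemia 2 that value was 1.07 (adjusted p = 0.00125). Klf9 was then also called higher in endothelial-like (0.28, adjusted p = 0.0152) and hepatocyte-like cells (0.38, adjusted p = 0.0278). The hepatocyte-like call was gained too without the filter on low counts (0.35, adjusted p = 0.0499).

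Zbtb16 encodes PLZF, a zinc finger repressor that is induced by glucocorticoids in many tissues and that also directs the development of innate-like lymphocytes (chr9:48654297-48836222, minus strand). Its range over classes was the widest among the members at 802-fold, from 566 ± 150 CPM in the NK-or-T-like class to 0.706 ± 0.514 CPM in pre-B-like cells. NK-like cells followed at 138 ± 36.5 CPM. The Zbtb16 level of the NK-or-T-like class is part of what defined that class. In B-like cells, where it averaged 1.45 CPM, carried-over hepatocyte-like RNA could account for 58.4% of the level, and in pre-B-like cells for 40.7%.

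The stellate-like class gave the largest log2 fold change among the 123 pairs. Control pups had 5.85, 14.5 and 26.2 CPM of Zbtb16 (lowest, median and highest), and anemic pups had 53.1, 115 and 202 CPM. The lowest anemic pup was above the highest control. The log2 fold change was 3.12 (SE 0.38, adjusted p = 0.000139), an 8.68-fold rise that rested on 456 UMIs in controls and 2484 in anemic pups. With doublets left out the group means were 18.2 and 149 CPM. Zbtb16 marks NK-or-T-like and NK-like cells too, and the summed markers of NK-like cells in the stellate-like class ran from 17.8 to 52.6 CPM in controls and from 8.32 to 275 CPM in anemic pups, with 6 of 7 markers higher on average in anemia. Those of T-like cells were 46.4 and 44.5 CPM on average. Their part in the result was not tested.

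Hepatocyte-like cells had 11.0, 15.6 and 25.2 CPM of Zbtb16 in control and 20.9, 27.3 and 80.2 CPM in anemic pups, and 3 anemic pups lay above all controls. The log2 fold change was 1.26 (SE 0.29, adjusted p = 0.00154), and the pup at 80.2 CPM, anemia 3, stood far from the rest of its group. Summed stellate-like markers in this class were lower with anemia (446 to 733 CPM in controls and 29.5 to 177 CPM in anemic pups). In endothelial-like cells the levels were low, with 0.439, 1.42 and 2.14 CPM in controls and 1.10, 2.75 and 24.9 CPM in anemic pups. The highest value came from anemia 6. There the log2 fold change was 2.51 (SE 0.72, adjusted p = 0.0262), and it was 1.28 (adjusted p = 0.0752) without anemia 6. This call was also lost without control 4, 5 or 6, with doublets left out and with sex in the model (adjusted p from 0.0509 to 0.0791). In NK-like cells, where Zbtb16 is abundant, anemic pups had 88.3 to 144 CPM against 131 to 191 CPM in controls, a log2 fold change of -0.54 that did not pass (adjusted p = 0.0822). It was called lower there by DESeq2 (-0.55, adjusted p = 0.0197), without the filter on low counts (-0.55, adjusted p = 0.028) and without anemia 4 (-0.63, adjusted p = 0.0345).

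**Figure D2:**
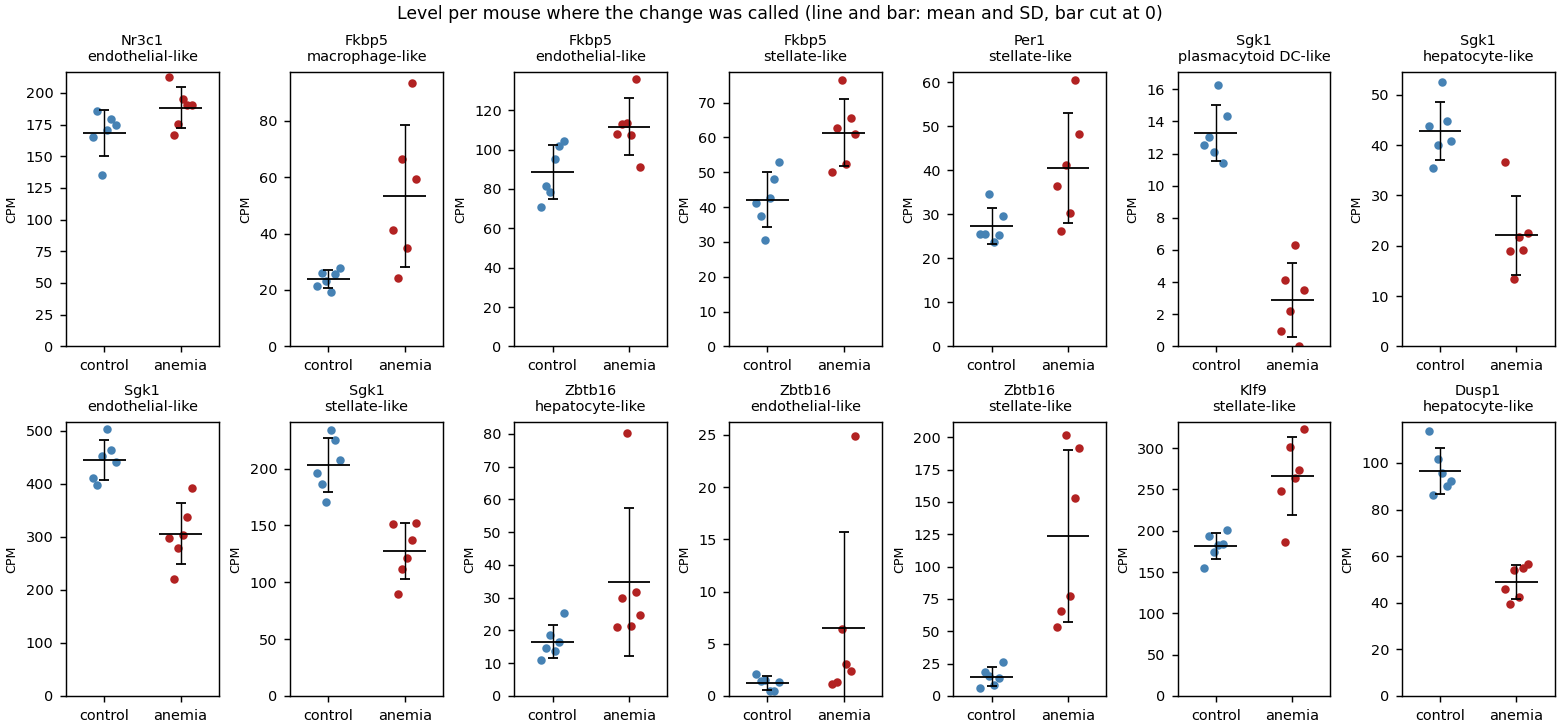
Level per pup, in CPM of the class, for the 14 called pairs of gene and class, with control pups on the left and anemic pups on the right of each panel (6 each, mean as a line and SD as a bar, cut at 0). Zbtb16 in the stellate-like class and Dusp1 in the hepatocyte-like class show no overlap between groups. Nor does Sgk1 in the endothelial-like, stellate-like and plasmacytoid dendritic-like classes. In the last of these it passed the filter on low counts only through the controls. Zbtb16 in the endothelial-like class is set apart mainly by a single pup at 24.9.

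Sgk1 encodes a serine/threonine kinase induced by serum, glucocorticoids and aldosterone that raises sodium channel activity and supports cell survival (chr10:21882184-21999903, plus strand). RefSeq windows of 300 bases around transcription starts were found for 6 of the 8 members (not Nr3c1 and Zbtb16), 14 windows in all, and were searched on both strands for the letters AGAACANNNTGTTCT. A match stood in 1 of the 6 Sgk1 windows and in no window of the other 5 members searched, and in 3 of 32851 windows of all genes (0.00913%). The looser form GNACANNNTGTNC was found in 0.475% of windows and overlaps the full form at the same place. The stretch chr10:21993640-21993889 (plus strand, GRCm38.p6) before that start is printed because it holds the match, in capitals, which begins 189 bases before the start.

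Sgk1: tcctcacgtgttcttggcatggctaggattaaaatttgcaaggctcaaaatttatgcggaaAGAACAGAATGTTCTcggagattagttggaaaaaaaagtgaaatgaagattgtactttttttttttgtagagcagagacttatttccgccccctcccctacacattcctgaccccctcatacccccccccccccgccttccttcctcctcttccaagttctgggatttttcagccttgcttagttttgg

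Sgk1 was highest in endothelial-like cells at 375 ± 86.3 CPM, above stellate-like cells at 165 ± 45.8 CPM in 12 of 12 pups. It was the member whose difference pointed downwards most often, with 13 of 16 negative log2 fold changes, and it was called lower in 4 classes. Among these, the plasmacytoid dendritic-like class passed the filter on low counts only through the controls. In endothelial-like cells control pups had 399, 446 and 503 CPM and anemic pups 221, 301 and 392 CPM. Every anemic pup lay below every control. The log2 fold change was -0.44 (SE 0.10, adjusted p = 0.00885).

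In the stellate-like class Sgk1 values were 171, 202 and 234 CPM in controls and 89.7, 129 and 152 CPM in anemic pups, again without overlap (log2 fold change -0.58, SE 0.12, adjusted p = 0.00431). Endothelial-like markers, which come from the class richest in Sgk1, summed to 3526 to 5345 CPM in the stellate-like cells of controls and 2404 to 4471 CPM in those of anemic pups, and their part in the result was not tested. Hepatocyte-like cells had 35.4, 42.3 and 52.5 CPM in controls and 13.4, 20.4 and 36.6 CPM in anemic pups (log2 fold change -0.61, SE 0.16, adjusted p = 0.00415), where summed endothelial-like markers ran from 537 to 835 CPM and from 120 to 340 CPM. All anemic pups but 1 lay below every control there. Leaving out called doublets reduced the values to -0.28 (adjusted p = 0.514) in the stellate-like and -0.17 (adjusted p = 0.464) in the hepatocyte-like class, while the endothelial-like call was kept. In plasmacytoid dendritic-like cells Sgk1 was near the limit of detection, with 76 UMIs in controls and 18 in anemic pups. Control pups there had 11.4 to 16.2 CPM and anemic pups 0 to 6.33 CPM, for a log2 fold change of -2.03 (SE 0.36, adjusted p = 0.00679). With doublets left out 38 and 7 UMIs remained and no test was made. Summed markers of macrophage-like cells, which averaged 109 CPM of Sgk1, ran in this class from 183 to 979 CPM in controls and from 204 to 492 CPM in anemic pups (0 of 11 markers higher on average), and their part in the result was not tested.

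Dusp1 encodes MKP-1, a phosphatase that switches off p38 and JNK and that glucocorticoids, growth factors and cell stress all induce quickly. Its 300-base window holds no full or looser response element, but it does hold a cyclic AMP element (TGACGTCA, found in 1.79% of windows) 143 bases and an E-box (CACGTG, in 7.15%) 126 bases before the start. Both are in capitals in the stretch chr17:26508578-26508627 (minus strand, GRCm38.p6), which is printed to show the neighbouring elements of a target with more inputs than the receptor.

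Dusp1: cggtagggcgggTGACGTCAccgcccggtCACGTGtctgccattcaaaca

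Mean Dusp1 levels were 902 ± 208 CPM in macrophage-like, 752 ± 168 in monocyte-like and 570 ± 218 in neutrophil-like cells, the 3 highest, and none of those steps went beyond the spread between pups. Neutrophil-like cells were above endothelial-like cells (498 ± 110 CPM) in 5 of 12 pups, and conventional dendritic-like cells ranked 8 at 432 ± 50.7 CPM. The single call was in hepatocyte-like cells, where control pups had 86.1, 93.8 and 114 CPM and anemic pups 39.4, 50.1 and 56.7 CPM. No anemic pup reached the lowest control. The log2 fold change was -0.66 (SE 0.10, adjusted p = 5.24e-05), and it was -1.04 without the allowance for the shift of all genes. Endothelial-like and stellate-like cells carry more Dusp1 than hepatocyte-like cells, and their summed markers in this class averaged 640 CPM in controls and 214 CPM in anemic pups (0 of 10 higher) and 546 and 114 CPM (0 of 9 higher). Their part in the result was not tested. The classes richest in Dusp1 gave mixed values that did not pass. A joint voom model called Dusp1 lower in macrophage-like cells (-0.19, adjusted p = 0.0367). It called Dusp1 higher in neutrophil-like (0.50, adjusted p = 0.0202) and endothelial-like cells (0.18, adjusted p = 0.025). Macrophage-like cells had 399, 873 and 976 CPM in anemic pups against 923, 1037 and 1090 CPM in controls, and neutrophil-like cells had 506, 584 and 1157 CPM against 382, 449 and 507 CPM. Dusp1 was 1467 and 1458 CPM (control and anemia) in the neutrophil-like cluster led by Csta3, whose share was larger in anemia, and 134 and 164 CPM in the one led by Ltf. It was 654 and 755 CPM in the one led by Retnlg and 195 and 127 CPM in the one led by Camp. The part of the make-up in this value was not tested.

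**Figure D3:**
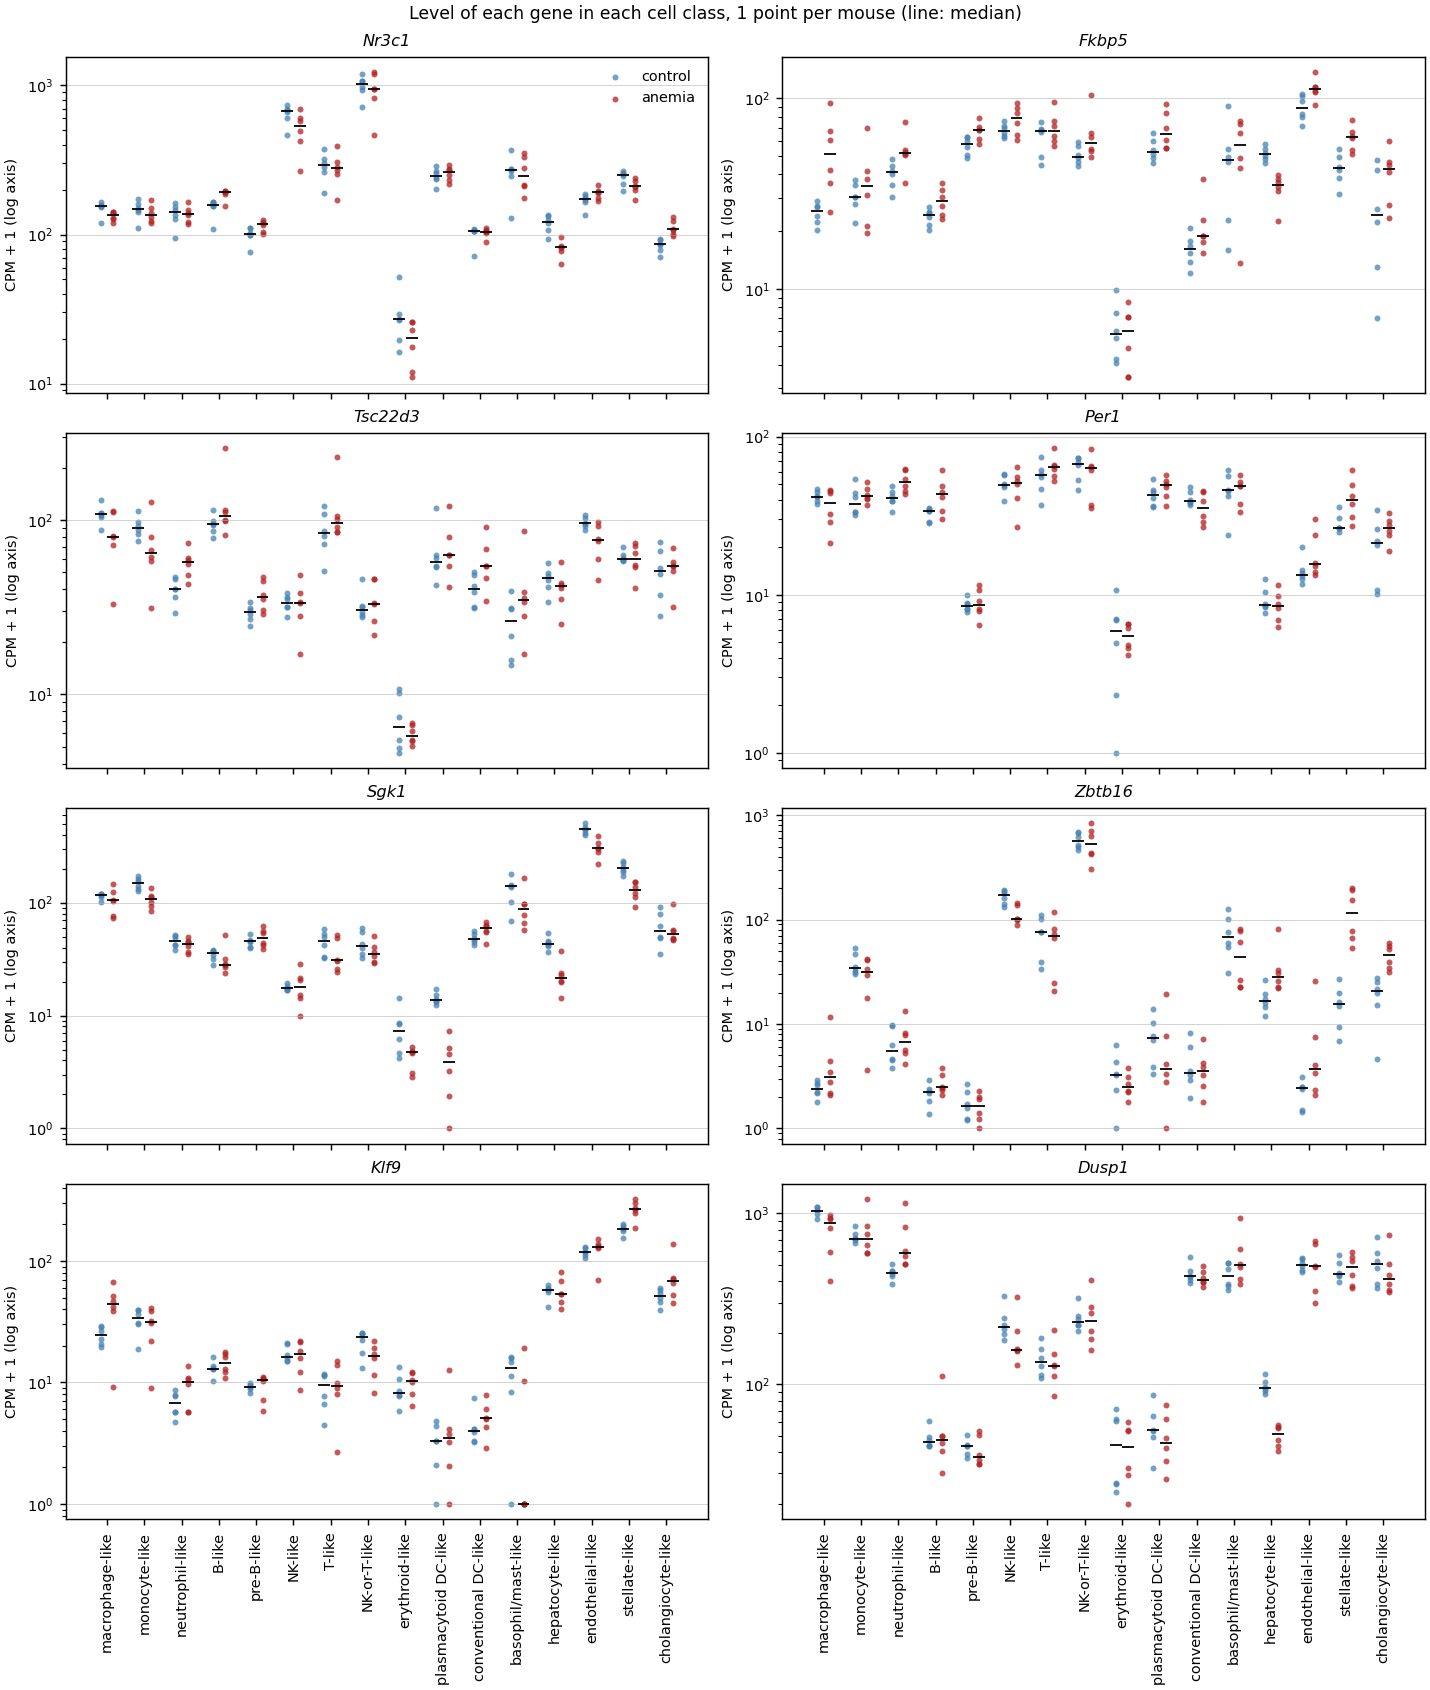
Level of each gene (panel) in each cell class in CPM plus 1 on a log axis, with 1 point per pup, control in blue and anemia in red, and the group median as a line. The receptor gene Nr3c1 and Zbtb16 peak in the NK-or-T-like class, Sgk1 and Fkbp5 in endothelial-like, Klf9 in stellate-like and Dusp1 in macrophage-like cells.

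Each pattern over classes had close neighbours among 11702 other genes, taken as the Pearson correlation of log2 class means over the 16 classes, which share pups and libraries. Nr3c1 was most like Rbl2 (0.92), Ubr2 (0.92) and Vamp1 (0.90), and Fkbp5 most like Anp32a (0.88), Cds2 (0.88) and Sft2d2 (0.86). Klf9 was nearest to Epas1 (0.91), Gpx7 (0.91) and Kank1 (0.91), and Zbtb16 to Abcb1a (0.88), Sytl2 (0.84) and Myo16 (0.84). The genes nearest to Sgk1 were Nup210l (0.92), Klhl5 (0.91) and Wsb1 (0.89), and those nearest to Dusp1 were Gbp2 (0.93), Ggh (0.90) and Txnrd1 (0.90). Tsc22d3 was followed by Rab1a (0.89), Slc30a7 (0.89) and Xrcc4 (0.89), and Per1 by Spty2d1 (0.91), Rnf166 (0.91) and Dennd1c (0.91).

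Whether a pup high in a gene in one class was high in the others was described by the correlation over pups, with group means removed, averaged over all pairs of 14 classes. It was 0.59 for Nr3c1 and 0.52 for Tsc22d3, 0.36 for Dusp1, 0.27 for Fkbp5, 0.20 for Per1 and -0.02 for Sgk1, beside a median of 0.17 over 6915 genes. Pups high in the receptor or in GILZ transcripts in a class thus tended to be high in others, and for Sgk1 they did not. Each pup was also a library of its own, so a trait of the pup cannot be told apart from one of its library.

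To ask for a change across the liver as a whole, each pup's log2 level was averaged over the 16 classes with equal weight. Among the 3798 genes tested in every class, 1.61% were called. Of the 5 members that could be tested so, Sgk1 was called lower (log2 difference -0.37, SE 0.05, adjusted p = 0.00361), and its value stayed between -0.40 and -0.35 when each pup was left out in turn. Fkbp5 had 0.32 (SE 0.11, adjusted p = 0.154) and Per1 0.17 (SE 0.08, adjusted p = 0.344). Dusp1 (-0.06, SE 0.11, adjusted p = 0.834) and Nr3c1 (-0.02, SE 0.09, adjusted p = 0.941) were close to 0. Over the 12 classes in which all 8 members were tested, where 2.72% of 7414 genes were called, Zbtb16 had 0.57 (SE 0.15, adjusted p = 0.0592), Klf9 0.19 (adjusted p = 0.468) and Tsc22d3 0.01 (adjusted p = 0.967). Sgk1 was called in that set too, with a smaller value of -0.29 (SE 0.06, adjusted p = 0.0228). The set leaves out plasmacytoid dendritic-like cells, where Sgk1 was near the limit of detection.

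The hepatocyte-like class parted from the rest. Its change was set against the mean change of the other 15 classes, a difference called for 72.1% of the genes compared in this class. Levels were scaled here over the genes tested in every class compared. These values are thus not on the scale of the class tests above. Fkbp5 was lower there by -0.83 (adjusted p = 5.43e-05), Dusp1 by -0.80 (adjusted p = 1.71e-05), Sgk1 by -0.49 (adjusted p = 0.0155) and Nr3c1 by -0.395 (adjusted p = 0.00076) than in the other classes. The share of all genes departing in this way was 17.4% in endothelial-like, 13.2% in stellate-like, 11.2% in B-like, 3.79% in pre-B-like and 1.92% in conventional dendritic-like cells. Nr3c1 departed upwards in endothelial-like (0.24, adjusted p = 0.0166) and B-like cells (0.35, adjusted p = 0.0196), and Per1 in stellate-like cells (0.45, adjusted p = 0.0329). Sgk1 departed upwards in conventional dendritic-like (0.60, adjusted p = 0.00776) and pre-B-like cells (0.51, adjusted p = 0.0411), where its own change was 0.20 and 0.07. Per1 departed downwards in conventional dendritic-like cells (-0.46, adjusted p = 0.0248). Over the 12 classes with all 8 members tested, each set against the other 11, Zbtb16 departed by 2.74 (adjusted p = 0.000397) and Klf9 by 0.47 (adjusted p = 0.0135) in stellate-like cells, where 8.43% of genes did. Tsc22d3 departed by -0.40 in endothelial-like cells (adjusted p = 0.00896, 14.1% of genes) and by -0.55 in macrophage-like cells (adjusted p = 0.0498, 2.7%), and Zbtb16 by -1.23 in NK-like cells (adjusted p = 0.0431, 0.0405%).

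Because a class can change its average when its clusters change in share, members were also compared within single clusters of the 4 classes with most calls among structural cells and macrophages. In the stellate-like class the Ank3 and Colec11 cluster fell from 57.9% of the cells in controls to 29.8% in anemic pups, and the Mfap4 and Col1a1 cluster rose from 42.1% to 70.2%. Zbtb16 rose in both. In the first, controls had 1.28 to 9.53 CPM and anemic pups 29.8 to 109 CPM (log2 fold change 3.59, SE 0.33, adjusted p = 1.21e-06, with 6.42% of genes called). In the collagen cluster, where 0.331% of genes were called, controls had 15.7 to 66.8 CPM and anemic pups 72.2 to 250 CPM (log2 fold change 2.20, SE 0.36, adjusted p = 0.00965). Fkbp5 also rose in both, by 0.91 (adjusted p = 6.39e-05) and 1.33 (adjusted p = 0.0361), and Klf9 by 0.44 (adjusted p = 0.0224) in the first, while the collagen cluster gave 0.55 (adjusted p = 0.0937).

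Sgk1 was also followed in the 2 stellate-like clusters taken apart. Its mean level in controls was 266 CPM in the first and 62.2 CPM in the collagen cluster, and its log2 fold changes within them were -0.17 (adjusted p = 0.407) and 0.08 (adjusted p = 0.963). Neither value passed the test, unlike that of the whole class, and the cluster poorer in Sgk1 was the larger one in anemia. The endothelial-like class changed its make-up too: the cluster led by Clec4g and Dnase1l3 went from 52.6% of its cells in controls to 24.1% in anemic pups, the one led by Fgf23 and Adam23 from 21.6% to 44.8% and the one led by Ccl21a from 7.5% to 12.2%. Sgk1 there fell within 4 of 5 clusters by -0.77 to -0.36 (adjusted p from 6.44e-05 to 0.047), and the fifth, led by Ccl21a, had 0.07. The share of all genes called in the 5 clusters was 18.8%, 20.1%, 15.4% and 8.91% in those 4 and 0.898% in the fifth. Fkbp5 rose in 4 of these 5 clusters by 0.38 to 0.67 and fell in the one led by Fabp4 and Dnase1l3 by -0.84 (adjusted p = 0.0255), whose cells had a median UMI count 0.367 times that of their libraries. Nr3c1 had 0.12 to 0.28 in the 5 clusters and was called in the one led by Fgf23 and Adam23 (0.28, adjusted p = 0.0476). Zbtb16 could be tested in 2 of them and passed in neither, with 0.03 in the one led by Fgf23 and Adam23 (adjusted p = 0.979) and 2.71 in the one led by Ccl21a (adjusted p = 0.186).

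Among hepatocyte-like clusters Zbtb16 reached the count minimum in the cluster led by Apob and Cps1 alone, where controls had 15.7 to 39.0 CPM and anemic pups 63.9 to 294 CPM (log2 fold change 2.23, SE 0.30, adjusted p = 5.09e-05, with 7.38% of genes called). Klf9 rose by 0.67 (adjusted p = 0.0081) in the same cluster. Called doublets made up 34.6% of its barcodes. Sgk1 was called in none of the 4 clusters, with -0.55 to 0.01 (adjusted p from 0.241 to 0.998). Dusp1, called lower in the whole class, had -0.64 to -0.20 within the 4 clusters and was called in none (adjusted p from 0.162 to 0.748), with 5.59%, 7.54% and 5.03% of genes called in the other 3 clusters. The share of the clusters changed from 31.8% to 12.8% for the Apob cluster and from 19.8% to 40.3% for the one led by Uox and Gnmt. The Apob cluster, which made up less of the class in anemic pups, was the richest of the 4 in Dusp1 and Sgk1 (130.1 and 60.4 CPM in controls, against 40.3 to 83.0 and 16.9 to 22.3 CPM in the other 3) and in Fkbp5 and Nr3c1 (68.9 and 162 CPM). There the Fkbp5 and Nr3c1 log2 fold changes were positive, at 0.38 (adjusted p = 0.0777) and 0.27 (adjusted p = 0.191). Their values in the other 3 clusters were negative, from -0.45 to -0.22 for Fkbp5 (adjusted p from 0.425 to 0.655) and from -0.29 to -0.18 for Nr3c1 (adjusted p from 0.389 to 0.689). In the largest macrophage-like cluster, led by Clec4f and Vsig4, Fkbp5 rose by 1.36 (adjusted p = 0.00526) and Klf9 by 0.96 (adjusted p = 0.0071), with 2.87% of genes called. This cluster went from 62.5% of the class in controls to 40.0% in anemic pups. In the cluster led by Vsig4 and Slc40a1, where 0.427% of genes were called, Fkbp5 had 1.11 (adjusted p = 0.22) and Klf9 0.65 (adjusted p = 0.492). The cluster led by Serpinb2 and Prg4 went from 2.28% to 21.3% of the class, and with 0% of genes called Fkbp5 had 1.03 (adjusted p = 0.885) and Klf9 0.60 (adjusted p = 0.983) there.

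**Figure D4:**
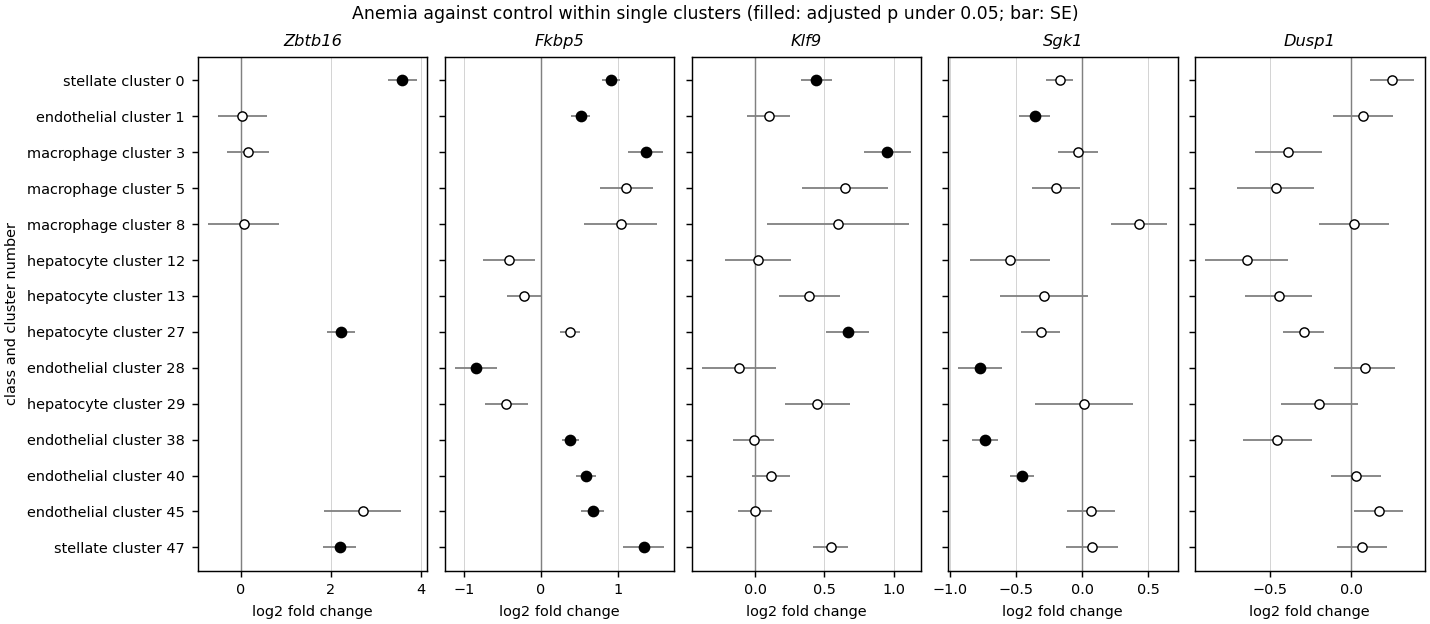
Log2 fold change of anemic against control liver within single clusters (rows, by class and cluster number) for 5 of the genes, with the standard error as a bar and filled points where the adjusted p was under 0.05. Zbtb16 and Fkbp5 lie to the right in both stellate-like clusters, and Sgk1 has filled points to the left in 4 of 5 endothelial-like clusters and open points at -0.17 and 0.08 in the stellate-like ones.

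Other genes around the pathway were taken from 5 lists. Steroid supply and receptor machinery (16 genes) gave 8 higher and 16 lower calls among 213 tests over all classes. Of these 24 calls, 16 lay in the hepatocyte-like, endothelial-like and stellate-like classes, where 15.1% to 55.2% of all genes were called, and 11 in hepatocyte-like cells alone. The gene called in most classes was Serpina6, which encodes corticosteroid-binding globulin, the carrier that hepatocytes secrete to hold glucocorticoid in plasma. Hepatocyte-like cells had 125 to 285 CPM in controls and 15.6 to 63.1 CPM in anemic pups, without overlap (log2 fold change -2.03, SE 0.24, adjusted p = 2.72e-06). It was also called lower in 7 of the 8 other classes tested, at low levels such as 10.5 and 1.09 CPM on average in B-like cells. Serpina6 passed the filter on low counts in those 7 classes mainly through the controls, so calls there could hardly be other than lower. Hepatocyte-like markers were lower on average in the macrophage-like, endothelial-like and stellate-like classes (9 of 9 markers in each). The part of carried-over RNA in those 7 calls was not tested. Nrip1, a receptor co-repressor, was higher in macrophage-like (0.44) and stellate-like cells (0.28) and lower in hepatocyte-like cells (-0.89). Hspa8, a heat shock protein that helps to fold the receptor, was higher in hepatocyte-like cells (0.52) and lower in macrophage-like (-0.43) and pre-B-like cells (-0.32).

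Other genes induced by glucocorticoids (26 genes) gave 49 higher and 9 lower calls among 335 tests, 40 of the 58 in those 3 classes. In the hepatocyte-like class 8 of 24 rose and 5 fell, beside 27.9% and 27.3% of all genes, with a median of 0.08 beside -0.03. In the endothelial-like class 12 of 25 rose and 3 fell, beside 7.67% and 10.8% of all genes, with a median log2 fold change of 0.44 beside 0.01. In the stellate-like class 12 of 26 rose and none fell, beside 7.88% and 7.2% of all genes, with a median of 0.36 beside 0.00. Such medians were not particular to this list. Those of the repressed inflammatory genes described below were 0.50 in endothelial-like and 0.49 in stellate-like cells. Those of the immediate early genes were 0.53 and 0.30. The metallothioneins Mt1 and Mt2, which bind zinc and are also induced by metals and hypoxia, were called higher in 10 and 9 classes. Mt1 in hepatocyte-like cells was between 225 and 462 CPM in controls and between 1493 and 11790 CPM in anemic pups (log2 fold change 4.16, SE 0.42, adjusted p = 4.72e-07). With Mt1 so abundant in hepatocyte-like cells, the part of carried-over RNA in its lower levels elsewhere was not tested. Ddit4, an inhibitor of mTOR induced by hypoxia as well as by glucocorticoids, rose in macrophage-like (2.22, adjusted p = 0.0202), endothelial-like (0.85, adjusted p = 0.000328) and stellate-like cells (0.54, adjusted p = 0.0379). Cdkn1a, a cell cycle inhibitor, rose in hepatocyte-like (1.22), endothelial-like (0.59) and stellate-like cells (0.31), and Anxa1, an anti-inflammatory lipid-binding protein, rose in the same classes (0.71, 0.93 and 0.99). Nfkbia, which encodes the NF-κB inhibitor IκBα, rose in endothelial-like (0.40) and stellate-like cells (0.30) and fell in hepatocyte-like (-0.55) and pre-B-like cells (-0.34).

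Inflammatory genes that glucocorticoids repress (12 genes) gave 7 higher and 8 lower calls among 144 tests, 11 of the 15 in those 3 classes, and they did not share a direction. Il1a fell in endothelial-like, hepatocyte-like (-1.08) and stellate-like cells (-1.20), where stellate-like controls had 38.7 to 60.5 CPM and anemic pups 18.2 to 25.9 CPM. Ptgs2, the inducible cyclooxygenase, rose in macrophage-like (2.26, adjusted p = 0.0225), monocyte-like (1.62, adjusted p = 0.0109) and stellate-like cells (2.62, adjusted p = 0.00105). The monocyte-like class lay in different clusters in the 2 groups: the one led by Arhgef37 and Ccr2 held 90.6% of it in controls and 41.2% in anemic pups, and the one led by Ly6i and Saa3, which has Ptgs2 among its top genes and takes 3836 of its 5058 cells from a single pup, held 9.37% and 58.8%. Icam1 rose in endothelial-like cells (0.44) and fell in hepatocyte-like (-1.23) and pre-B-like cells (-0.64).

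Immediate early genes (15 genes), which dissociation of tissue can also induce, gave 12 higher and 16 lower calls among 237 tests, 20 of the 28 in the same 3 classes: 9 of 15 fell in hepatocyte-like cells, the class in which Dusp1 fell and 27.3% of all genes did, and 6 rose with none falling in endothelial-like cells, where 7.67% of all genes rose. Fosb, an AP-1 subunit, fell in hepatocyte-like (-0.96), plasmacytoid dendritic-like (-0.82), pre-B-like (-0.54) and NK-like cells (-0.52) and rose in stellate-like cells (0.50). Junb, another AP-1 subunit, fell in hepatocyte-like (-0.63), plasmacytoid dendritic-like (-0.44) and pre-B-like cells (-0.43). Atf3, a stress-induced transcription factor, fell in hepatocyte-like cells (-0.61) and rose in endothelial-like (0.54) and stellate-like cells (0.51). Socs3, which restrains cytokine signalling, likewise fell in hepatocyte-like cells (-0.64, adjusted p = 0.00898) and rose in macrophage-like (0.82), endothelial-like (1.51) and stellate-like cells (0.82). The circadian list (12 genes, with Per2 shared with the induced list) gave 6 higher and 8 lower calls among 142 tests, 11 of the 14 in the same 3 classes, and no clock gene was called in 3 classes or more.

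**Figure D5:**
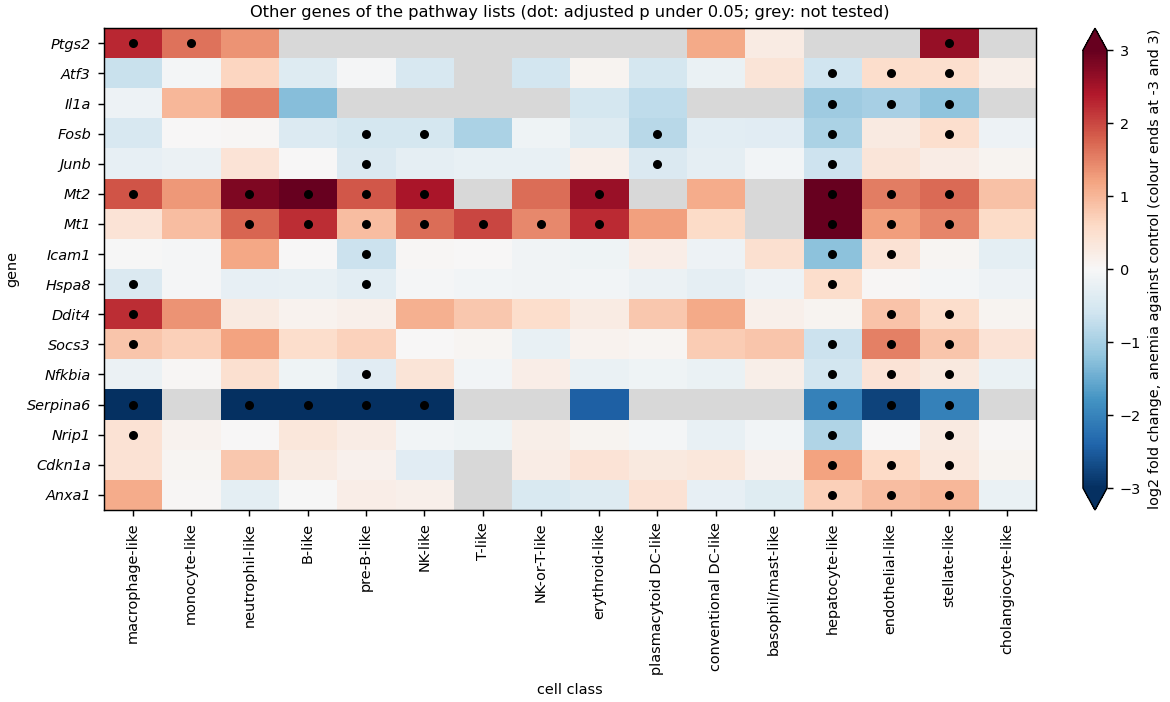
Log2 fold change of anemic against control liver for 16 genes of the other lists (rows) in the 16 classes (columns), in colour from -3 (blue) to 3 (red), with a dot where the adjusted p was under 0.05 and grey where a gene was not tested. Mt1 and Mt2 are red in most classes, Serpina6 is blue wherever it was tested, and most other dots stand in the hepatocyte-like, endothelial-like and stellate-like columns.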

How the data were processed

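Single-cell RNA libraries of 12 livers were deposited as UMI counts per gene and barcode, made by the authors with Cell Ranger 7.0.0 on mm10 (32285 genes). The labels name the v2 and the study the v3.1 version of the 10x kit. Deposited counts were used without other normalization. As in the study, barcodes were required to hold 500 to 50000 UMIs, no more than 50% of them mitochondrial. Cells were clustered (2000 variable genes, 20 components, Leiden resolution 2) and clusters named from marker lists. Doublets were called from simulated neighbours (11.6% to 18.3% of cells) and kept. UMIs were summed per pup and class, and genes averaging 5 or more UMIs over the pups were tested with edgeR 4.0.16 (quasi-likelihood, TMM, Benjamini-Hochberg over all genes of the class, called under 0.05). Averages over classes and departures were tested with limma 3.58.1, on log2 levels scaled over the genes tested in every class compared. CPM is UMIs per 1000000 UMIs of the class. The scripts were tested on simulated data.

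Carried-over RNA was bounded by scaling the hepatocyte-like profile of each pup to the hepatocyte markers found in another class. All 8 members were named in every class, and other list genes where called in at least 3 classes, at most 6 a list. The members and lists were chosen with earlier results of these data known. The alternatives were library sizes without TMM, the replicate block, sex as a covariate, 10% mitochondrial UMIs, doublets left out, Leiden resolution 1, DESeq2 1.42.0, a joint voom model, 2 other count minimums and each pup left out. Left out were unnamed cells, mitochondrial and ribosomal protein genes from tests, and promoter windows of Nr3c1 and Zbtb16. Intervals and tests cover the spread between these pups, and 10x kits count transcripts near their ends, so levels were not compared between genes.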

Additional observations from a re-analysis of the deposited data

Results flagged for a closer look

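In hepatocyte-like cells Zbtb16 in anemia 3 was 80.2 CPM, far above the other 5 anemic pups, and in endothelial-like cells Zbtb16 in anemia 6 was 24.9 CPM, far above its group. By the same measure (Dixon's 95% limit for the gap beside the range of a group of 6) 29 of 256 groups over all members and classes held such a pup, and chance alone sets a pup apart in about 1 in 20 groups.

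Changes of a member in a class that differed from its mean change in the other classes, by limma, were as follows. In hepatocyte-like cells, where 72.1% of all genes compared departed, the differences were -0.395 for Nr3c1, -0.83 for Fkbp5, -0.80 for Dusp1 and -0.49 for Sgk1. Nr3c1 departed by 0.35 in B-like (11.2% of genes) and 0.24 in endothelial-like cells (17.4%). Sgk1 departed by 0.51 in pre-B-like (3.79% of genes) and 0.60 in conventional dendritic-like cells (1.92%). Per1 departed by -0.46 in conventional dendritic-like and 0.45 in stellate-like cells (13.2%). Over the 12 classes with all 8 members tested, Tsc22d3 departed by -0.55 in macrophage-like cells (2.7% of genes) and by -0.40 in endothelial-like cells (14.1%). In that set Zbtb16 departed by -1.23 in NK-like cells (0.0405% of genes) and by 2.74 in stellate-like cells (8.43%), and Klf9 by 0.47 in stellate-like cells.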

How the results depend on the processing

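The 14 member calls became 23 in the joint voom model and between 10 and 18 under the other alternatives, with 11 to 17 when each pup was left out. The gains in the joint model included Klf9 in macrophage-like and endothelial-like, Per1 in endothelial-like and B-like, and Dusp1 in neutrophil-like cells, and the cause was not tested. Without TMM factors 8 member calls were higher and 7 lower, against 9 and 5 with them, since Fkbp5 and Nr3c1 in hepatocyte-like cells were then called lower (-0.65 and -0.62) and Nr3c1 in endothelial-like cells was lost (0.18, adjusted p = 0.128). The list calls moved from 82 higher and 55 lower to 63 and 66 under the same setting, and their total ran from 113 to 184 (104 to 147 with a pup left out) beside 137. With sex in the model 5 member calls were higher and 5 lower.

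Zbtb16 and Klf9 in stellate-like, Fkbp5 and Sgk1 in endothelial-like, and Zbtb16 and Dusp1 in hepatocyte-like cells kept call and direction in 23 of 23 alternatives on whole classes. Sgk1 in stellate-like cells was lost in 2 of 23, at Leiden resolution 1, which leaves the collagen-rich cells out of the class (-0.15, adjusted p = 0.473), and with doublets left out. Within single clusters 4 values turned: Fkbp5 in the endothelial-like cluster led by Fabp4 (-0.84), and Sgk1 in hepatocyte-like cells led by Uox (0.013), endothelial-like cells led by Ccl21a (0.069) and collagen-rich stellate-like cells (0.075).

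Averaged over classes, without anemia 2 and 3 (chosen after seeing the data) Dusp1 was 0.038 and Nr3c1 0.046, both opposite in sign to values near 0. Left out in turn, the pups gave -0.15 to 0.0018 for Dusp1, -0.10 to 0.037 for Nr3c1, 0.24 to 0.38 for Fkbp5 and 0.11 to 0.22 for Per1. Sgk1 could not be tested over all classes with doublets left out, for want of UMIs in plasmacytoid dendritic-like cells. Departures from the mean of the other 15 classes numbered 10, and 7 to 12 with a pup left out. The class with the highest level stayed the same for 7 of 8 members with globin, mitochondrial and ribosomal protein genes left out of the total and 7 with doublets left out, Per1 being the exception.

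The sources used here do not say what the replicate numbers mark, and deviations of pups with the same number correlated between -0.243 and 0.75, with 2 of 6 controls closest to their own number. With the replicate block 15 member calls (Nr3c1 in hepatocyte-like cells was gained, -0.25, adjusted p = 0.0484), 154 list calls and 11 departures were found. Depth limits Sgk1 in plasmacytoid dendritic-like cells and the 5 untested pairs.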
